A study of Mus musculus with 8 samples.

Results

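Messages of 48 genes for RNA splicing and neuronal RNA binding were followed on ribosomes of the mouse ventral tegmental area, among 56691 genes of the deposited table. The genes were chosen by name for their known role, with earlier results of these data known. They were 11 SR proteins (serine- and arginine-rich splicing activators, here with Tra2a and Tra2b), the 4 CLK kinases that phosphorylate them, 6 hnRNPs (heterogeneous nuclear ribonucleoproteins), 8 other splicing cofactors, and 19 genes of families known for splicing and RNA binding in neurons. All 48 were found by name and all 48 passed the filter on low counts.

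The study compared male mice that carry Ogt flox+/Y with mice that carry Ogt flox-/Y. In both groups AAV-TH-Cre was given together with AAV-Flex-NBL10 to the ventral tegmental area, the midbrain region of the dopamine neurons that project to striatum and cortex. The first virus drives Cre recombinase from the tyrosine hydroxylase promoter, so the controls carry Cre as well. The other gives cells with Cre an HA-tagged protein, NBL10, through which their ribosome-associated mRNA was enriched. Libraries of Ogt flox+/Y mice are called Ogt knockdown (n = 4, replicates 2, 3, 4 and 5) and those of Ogt flox-/Y mice control (n = 4, replicates 3, 4, 5 and 6). Age is not given in the labels. Whether replicates came from separate mice is not stated, and p-values therefore reflect spread among libraries that may be technical only. Below, values of single libraries follow the order of those replicate numbers.

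Splicing removes introns from a nuclear transcript and joins its exons. SR proteins bind exons and help the spliceosome to use them, CLK kinases set their phosphorylation and place in the nucleus, and hnRNPs often act against exon use. Neurons add their own regulators, such as the NOVA, RBFOX, ELAVL and PTBP2 proteins, which switch exons of synaptic and channel genes and bind to 3′ ends of messages. O-GlcNAc transferase, the product of Ogt, attaches a sugar to many nuclear proteins, and a retained intron in its own transcript is known to respond to O-GlcNAc levels. Gene-level counts such as these sum all isoforms of a gene, so exon choice itself was not measured.

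Total counts ranged from 49802305 to 147747191 reads per library. The smallest count behind any member in any library was 343 reads (Srsf4 in knockdown replicate 3). The Ogt message fell from 126 ± 22.8 to 49.8 ± 17.0 CPM (SD, n = 4 each; CPM scaled with edgeR's TMM method), and Oga, listed as Mgea5, fell from 151 ± 6.76 to 58.6 ± 11.4 CPM (edgeR adjusted p = 0.00243 for Ogt and 0.00041 for Oga). Dopamine neuron markers were present in every library: Th stood at 435 to 1241 CPM in controls and 180.1 to 282 CPM in knockdown libraries. Other cells were present too. The summed level of 8 astrocyte markers was 677 to 3841 CPM in controls and 7947 to 12025 CPM in knockdown libraries, that of 8 oligodendrocyte markers 1065 to 1649 and 1721 to 4253 CPM, and that of 8 microglia markers 11.98 to 24.3 and 36.5 to 122 CPM. The summed level of 8 general neuron markers (Snap25, Syt1, Tubb3, Stmn2, Map2, Syn1, Uchl1 and Eno2) was 7811 to 8676 CPM in controls and 3030 to 3851 CPM in knockdown libraries. In such libraries, fewer cells of a type, less RNA per cell and a different yield of the enrichment cannot be told apart. Both libraries numbered 3 stood apart, over all genes tested and among the members. Over all genes, control replicate 3 correlated at 0.927 to 0.935 with the other controls, which correlated at 0.982 to 0.990 with each other (log2 CPM). For knockdown replicate 3 these values were 0.947 to 0.952 and 0.976 to 0.979. Control replicate 3 was the highest or lowest control for 44 of the 48 genes, and knockdown replicate 3 the highest or lowest knockdown library for 44. Among 77 related genes that were not members, control replicate 3 was the highest or lowest control for 71. The share over all genes was not worked out. Control replicate 3 also held 956 CPM of 8 endothelial markers, against 11.4 to 18.9 CPM in the other controls. Its summed level of 8 dopamine neuron markers was 2600 CPM, against 1200 to 1481 CPM in the other controls. That of the astrocyte markers was 677 CPM, against 2302.5 to 3841 CPM.

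Promoters are shown for the 4 genes that fell in all 8 fits that left out 1 library and that have a single RefSeq start site, namely Nova1 and Nova2, Elavl3 and Tra2b. Each run is the 250 bases before the start, 5′ to 3′ on the gene's strand (RefSeq, GRCm38.p6), with the GC box GGGCGG in capitals on either strand, where it reads GGGCGG or CCGCCC (Nova1 has none):
Nova1 (chr12:46818768-46819017, minus strand): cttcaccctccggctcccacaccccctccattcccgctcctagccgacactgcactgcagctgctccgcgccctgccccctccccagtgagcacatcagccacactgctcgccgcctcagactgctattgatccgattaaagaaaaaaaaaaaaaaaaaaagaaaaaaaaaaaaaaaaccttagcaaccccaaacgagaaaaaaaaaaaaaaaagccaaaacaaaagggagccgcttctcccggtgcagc
Nova2 (chr7:18925638-18925887, plus strand): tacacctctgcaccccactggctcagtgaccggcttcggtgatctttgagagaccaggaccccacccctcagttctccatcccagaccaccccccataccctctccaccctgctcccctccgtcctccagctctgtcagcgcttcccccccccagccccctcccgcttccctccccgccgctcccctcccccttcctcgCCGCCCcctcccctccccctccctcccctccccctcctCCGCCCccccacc
Elavl3 (chr9:22052024-22052273, minus strand): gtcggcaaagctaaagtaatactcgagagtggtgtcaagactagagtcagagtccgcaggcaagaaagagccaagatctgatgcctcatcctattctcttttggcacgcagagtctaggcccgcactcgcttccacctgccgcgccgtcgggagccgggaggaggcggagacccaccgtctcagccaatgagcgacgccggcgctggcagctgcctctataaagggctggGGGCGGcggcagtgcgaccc
Tra2b (chr16:22266006-22266255, minus strand): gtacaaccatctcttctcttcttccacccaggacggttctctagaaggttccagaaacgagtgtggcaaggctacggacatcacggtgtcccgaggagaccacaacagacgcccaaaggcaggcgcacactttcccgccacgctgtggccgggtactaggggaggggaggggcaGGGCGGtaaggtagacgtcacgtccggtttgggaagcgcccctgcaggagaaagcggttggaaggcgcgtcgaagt
RefSeq windows were found for 43 of the 48 genes, 74 windows in all. The GC box occurred in 56.8% of these windows and in 32.7% of all 32851 windows of the same length. Windows of the same gene can overlap, so a site can be counted more than once. By gene, 29 of the 43 had a GC box in any window, and this share was not worked out for all genes. Median GC content was 61.2% in member windows and 52.4% in all windows. The motif TTCNNNGAA of STAT factors occurred in 8.11% of member windows and in 7.02% of all, and the cyclic AMP response element TGACGTCA in 2.70% and 1.55% (both strands; none of the 3 motifs contains another). None of the 4 promoters printed holds either of these 2 motifs. A match is a description of letters only.

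Across the 48 genes, 15 were lower in Ogt knockdown, 1 was higher and 32 did not pass the test (edgeR quasi-likelihood test, Benjamini-Hochberg adjusted p under 0.05 over all genes tested). That is 31.2% lower and 2.08% higher. Among all 19912 genes tested, 15.1% were lower and 13.4% higher, 28.5% in all. The median log2 fold change of the members was -0.28, against 0.0021 for all genes. Their absolute changes were small: the median was 0.34 on the log2 scale with a median SE of 0.17, against 0.50 and 0.25 for all genes. By role, the lower genes were 9 of the 19 genes of neuronal families, 4 of the 8 cofactors and 2 of the 11 SR proteins, while 0 of the 4 CLK kinases and 0 of the 6 hnRNPs passed the test. Differences between these roles were not tested. The number of lower members fell to 9 without control replicate 4 (11.3% of all genes lower in that fit) and to 8 without control replicate 6 (10.4%). It was 10 without control replicate 5 (11.3%) or knockdown replicate 4 (11.8%). Without control replicate 3 it was 16, with 1 higher (16.8% of all genes lower and 18.1% higher in that fit, 34.9% in all). Groups did not overlap for 13 lower members and 1 higher member; over all genes this held for 18% and 17.1%, 35.1% in all.

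**Figure D1:**
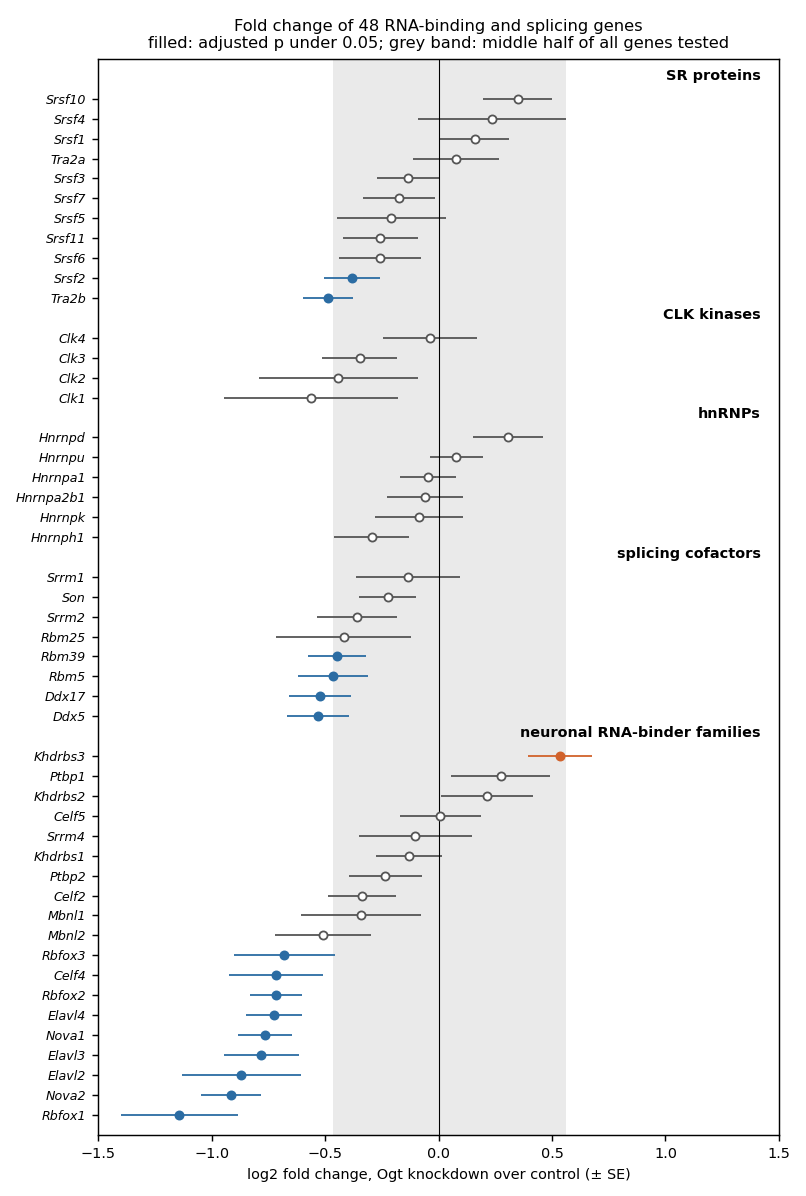
Log2 fold change of each of the 48 genes, Ogt knockdown over control, with its standard error, by group; filled points passed the edgeR test (blue lower, orange higher) and the grey band runs from the lower to the upper quartile of all genes tested. The 9 filled blue points of the neuronal families lie between -1.14 and -0.68, left of every other gene shown.

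The NOVA proteins, KH-domain regulators of synaptic exons known almost only from neurons, both fell. Nova1 stood at 153, 178, 164 and 158 CPM in controls and at 103, 83.4, 103 and 94.0 CPM in knockdown libraries. The groups did not overlap, and means were 163 ± 11.1 CPM in controls and 95.9 ± 9.38 CPM after knockdown (mean ± SD of 4 libraries; edgeR log2 fold change -0.77, SE 0.12, adjusted p = 0.00151). Nova2 stood at 109, 117, 96.8 and 110.1 CPM in controls and at 51.9, 49.0, 62.0 and 66.9 CPM after knockdown. Every knockdown library was again below every control, with a log2 fold change of -0.91 (SE 0.13, edgeR adjusted p = 0.0012). Both changes passed the test in each of the 8 fits that left out 1 library, and control replicate 3 lay close to the other controls.

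All 3 RBFOX genes fell; their proteins bind UGCAUG next to alternative exons, and RBFOX3 is the neuronal marker NeuN. Rbfox1 (chromosome 16, 5703219 to 7229390, GRCm39, plus strand) had the lowest fold change of the 48 genes. Its level was 58.7, 125, 117 and 117 CPM in controls and 54.6, 30.4, 53.2 and 51.4 CPM in knockdown libraries. Control replicate 3 lay just above the highest knockdown library, far from the other controls. The log2 fold change was -1.14 (SE 0.26, edgeR adjusted p = 0.00941) with that library and -1.34 (adjusted p = 0.000608) without it. Rbfox2, which is also expressed outside neurons, stood at 246, 273, 256 and 271 CPM in controls and at 166, 138, 167 and 165 CPM in knockdown libraries (log2 fold change -0.72, SE 0.12, edgeR adjusted p = 0.00191), with no overlap. Rbfox3 stood at 106, 169, 168 and 176 CPM in controls and at 92.0, 63.1, 111 and 119.8 CPM after knockdown. Here the groups overlapped through control replicate 3. Its log2 fold change of -0.68 (SE 0.22) had an edgeR adjusted p of 0.0439, which became 0.00834 without control replicate 3. Rbfox3 did not pass without control replicate 4 (edgeR adjusted p = 0.095), 5 (0.098) or 6 (0.111) or knockdown replicate 2 (0.0993), 3 (0.0658) or 4 (0.0567), and with upper quartile scaling (0.057).

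The neuronal ELAVL genes, whose proteins (HuB, HuC and HuD) bind AU-rich stretches and stabilise messages, also fell, 3 of 3. Elavl3 was nearly constant in controls, at 224, 229, 227 and 224 CPM, and stood at 141, 90.3, 135 and 159 CPM in knockdown libraries (log2 fold change -0.78, SE 0.17, edgeR adjusted p = 0.00678). Elavl4 stood at 124, 164, 152 and 137 CPM in controls and at 79.9, 92.7, 90.7 and 85.8 CPM in knockdown libraries (log2 fold change -0.72, SE 0.12, edgeR adjusted p = 0.00247). Neither gene's groups overlapped. Elavl2 differed: controls held 81.7, 227, 195 and 190.4 CPM and knockdown libraries 90.1, 86.0, 107 and 96.3 CPM, so control replicate 3 lay below all 4 knockdown libraries. Its log2 fold change was -0.87 (SE 0.26, edgeR adjusted p = 0.0325), and -1.11 (adjusted p = 0.000224) without control replicate 3. Leaving out any library other than control replicate 3 lost the Elavl2 call (edgeR adjusted p from 0.0517 without knockdown replicate 4 to 0.0858 without control replicate 4).

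**Figure D2:**
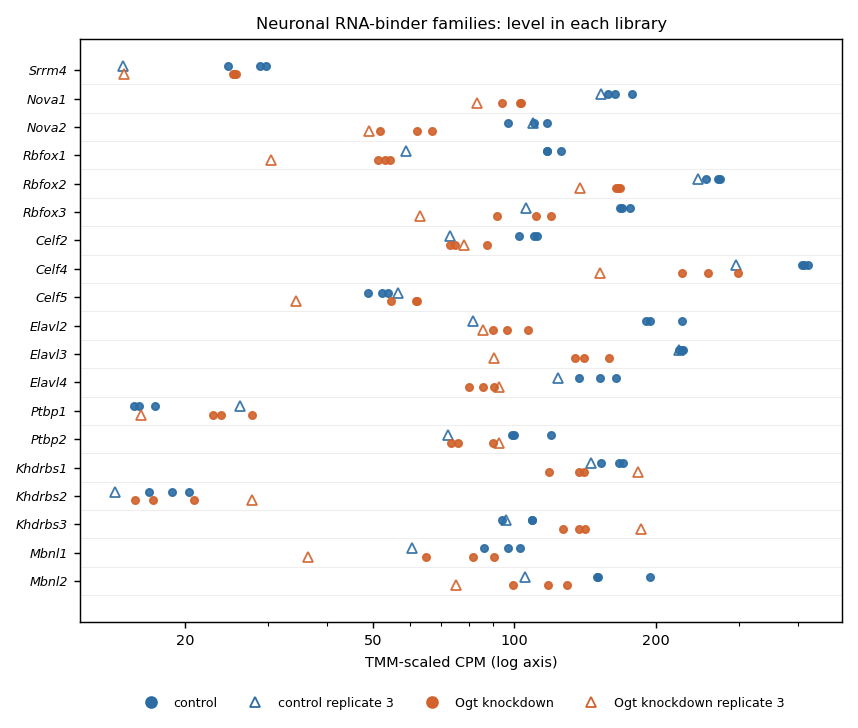
TMM-scaled CPM (log axis) of the 19 genes of neuronal families in each control (blue) and Ogt knockdown (orange) library; open triangles are the libraries numbered 3. Nova1, Nova2, Rbfox1, Rbfox2, Elavl3 and Elavl4 show no overlap between groups and are lower after knockdown, and Khdrbs3 shows no overlap and is higher.

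CELF genes did not move together. Celf4, a neuronal member that is among the more abundant messages here, stood at 296, 420.5, 412 and 409 CPM in controls and at 227, 152, 258 and 299 CPM in knockdown libraries. It fell by 0.72 on the log2 scale (SE 0.21, edgeR adjusted p = 0.0277), with control replicate 3 inside the knockdown range. It did not pass without control replicate 4 (edgeR adjusted p = 0.068), 5 (0.0677) or 6 (0.0718) or knockdown replicate 2 (0.0668). Celf2 did not pass with all libraries (73.0 to 111.7 CPM in controls, 73.0 to 87.6 CPM after knockdown; log2 fold change -0.34, SE 0.15, edgeR adjusted p = 0.118) and passed without control replicate 3 (-0.47, adjusted p = 0.00838). Celf5 had 53.0 ± 3.20 CPM in controls and 53.3 ± 13.03 CPM in knockdown libraries (mean ± SD of 4 libraries; edgeR log2 fold change 0.0081, SE 0.18, adjusted p = 0.979).

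Khdrbs3, which encodes the STAR-family protein SLM2 (T-STAR), was the only 1 of the 48 genes to pass the test as higher. The gene lies on chromosome 15, 68800269 to 68973060 (GRCm39, plus strand). Controls held 95.8, 109.1, 94.1 and 108.9 CPM and knockdown libraries 127, 186, 141 and 137 CPM. Every knockdown library was above every control, with knockdown replicate 3 the highest, and the log2 fold change was 0.54 (SE 0.14, edgeR adjusted p = 0.0192). Without control replicate 5 this gene no longer passed (edgeR adjusted p = 0.0614). Its relatives did not pass: Khdrbs1, which encodes the widely expressed SAM68, had 159 ± 11.7 CPM in controls and 145 ± 27.4 CPM after knockdown (edgeR adjusted p = 0.542), and Khdrbs2 had 17.5 ± 2.68 and 20.3 ± 5.40 CPM (SD, n = 4 each; edgeR adjusted p = 0.467).

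PTBP1 represses neuronal exons outside neurons, and PTBP2 takes its place as neurons form. Ptbp1 stood at 26.1, 15.5, 17.2 and 15.9 CPM in controls and at 22.9, 16.1, 23.8 and 27.7 CPM in knockdown libraries, so both libraries numbered 3 lay on the side of the other group. Ptbp2 stood at 72.4, 119.7, 99.0 and 99.99 CPM in controls and at 76.1, 92.6, 89.9 and 73.5 CPM in knockdown libraries. Neither passed the test with all libraries (log2 fold change 0.27 for Ptbp1 and -0.24 for Ptbp2, edgeR adjusted p = 0.38 and 0.304). Without both libraries numbered 3 (n = 3 each), Ptbp1 passed as higher (0.61, edgeR adjusted p = 0.000638) and Ptbp2 as lower (-0.41, adjusted p = 0.00508). Other genes annotated over the same bases cover 20.7% of the exon length of Ptbp1, and reads there were not counted to either gene.

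The remaining neuronal families gave no call with all libraries. Mbnl2, a muscleblind protein that promotes mature splicing patterns, had 150.1 ± 36.5 CPM in controls and 105 ± 23.7 CPM in knockdown libraries (mean ± SD of 4 libraries; edgeR log2 fold change -0.51, SE 0.21, adjusted p = 0.1) and passed without control replicate 3 (-0.65, adjusted p = 0.0214). Mbnl1 had a log2 fold change of -0.34 (SE 0.27, edgeR adjusted p = 0.369). Srrm4, the activator of neuronal microexons, stood at 14.7, 29.6, 24.6 and 28.7 CPM in controls and at 25.2, 14.8, 25.6 and 25.3 CPM in knockdown libraries. Its lowest values in each group were those of the libraries numbered 3, and the log2 fold change was -0.10 (SE 0.25, edgeR adjusted p = 0.791). Of the 19 neuronal family genes, 47.4% were lower, against 15.1% of all genes tested. Their median log2 fold change of -0.51 lay beside -1.25 for the 8 general neuron markers, of which 7 fell, and -1.80 for the 8 dopamine neuron markers, of which 8 fell. A glial marker score was 0.32 to 1.23 in knockdown libraries and -0.99 to -0.35 in controls. With it as a covariate, edgeR called 0 of the 19912 genes and so 0 members (1270 genes and 3 members at an unadjusted p under 0.05), and the score and the genotype cannot be told apart.

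Among SR proteins, 2 of 11 passed the test, both as lower (18.2%, against 15.1% of all genes tested). Tra2b, an SR-like activator that binds GAA-rich exons, stood at 83.9, 91.0, 86.6 and 98.5 CPM in controls and at 60.7, 70.5, 65.5 and 59.7 CPM in knockdown libraries. The groups did not overlap (log2 fold change -0.49, SE 0.11, edgeR adjusted p = 0.00947), and the call held in all 8 fits that left out 1 library. Srsf2, known as SC35 and a marker of nuclear speckles, stood at 64.3, 78.8, 75.9 and 85.3 CPM in controls and at 55.8, 65.9, 55.3 and 56.5 CPM after knockdown. Its log2 fold change of -0.38 (SE 0.12, edgeR adjusted p = 0.0423) passed narrowly, with an overlap between the libraries numbered 3. Srsf2 did not pass without control replicate 4 (edgeR adjusted p = 0.0927), 5 (0.0932) or 6 (0.135) or knockdown replicate 2 (0.0911), 4 (0.0961) or 5 (0.0875), and with RLE (0.0611) or upper quartile scaling (0.11) or no filter on low counts (0.0674). Exons of other genes overlap 25.3% of its exon length.

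The other 9 SR genes had log2 fold changes between -0.26 (Srsf6) and 0.35 (Srsf10), with edgeR adjusted p from 0.113 to 0.797. Srsf5, an SR gene induced by growth signals, showed how single libraries set the spread: controls held 280.1, 163, 162 and 142 CPM and knockdown libraries 155, 222, 134 and 137 CPM. In both groups the library numbered 3 was the highest. The same held for Srsf6 (128 CPM in control replicate 3, 78.7 to 84.4 in the other controls) and Tra2a (98.0 CPM, 67.3 to 75.2 in the others). Srsf7 passed as lower when knockdown replicate 3 was left out (edgeR adjusted p = 0.0343, against 0.444 with it). Srsf4 stood at 6.21 CPM in knockdown replicate 3 and at 20.6 to 21.0 CPM in the other knockdown libraries, against 13.7 to 17.1 CPM in controls. It passed as higher without that library (log2 fold change 0.51, edgeR adjusted p = 0.017), although 43.0% of its exon length is shared with another annotated gene. Srsf1, the founding SR protein, had 141 ± 10.2 CPM in controls and 157 ± 32.9 CPM in knockdown libraries (SD, n = 4; edgeR adjusted p = 0.472).

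None of the 4 CLK kinases passed (edgeR, 0 at an adjusted p under 0.05 and 0 at an unadjusted p under 0.05; DESeq2 and limma-voom also called 0). Clk1 stood at 118, 37.0, 38.6 and 36.2 CPM in controls and at 49.0, 40.5, 32.9 and 32.9 CPM in knockdown libraries. Control replicate 3 alone lay high, and the log2 fold change of -0.56 (SE 0.39, edgeR adjusted p = 0.309) became 0.055 (adjusted p = 0.814) without it. Clk2 had 43.4 CPM in that library and 13.6 to 16.3 CPM in the other controls, beside 14.6 to 17.7 CPM in knockdown libraries. Its log2 fold change went from -0.44 to 0.13 without control replicate 3. Clk4 had 55.1 CPM there, 30.9 to 31.8 CPM in the other controls and 29.8 to 40.7 CPM in knockdown libraries, and changed from -0.038 to 0.21. Clk3 kept its direction (-0.35 with all libraries, -0.25 without control replicate 3; edgeR adjusted p = 0.144 and 0.241). Control replicate 3 was thus the highest of all 8 libraries for all 4 CLK genes, and the sign of 3 of these 4 fold changes depended on it.

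**Figure D3:**
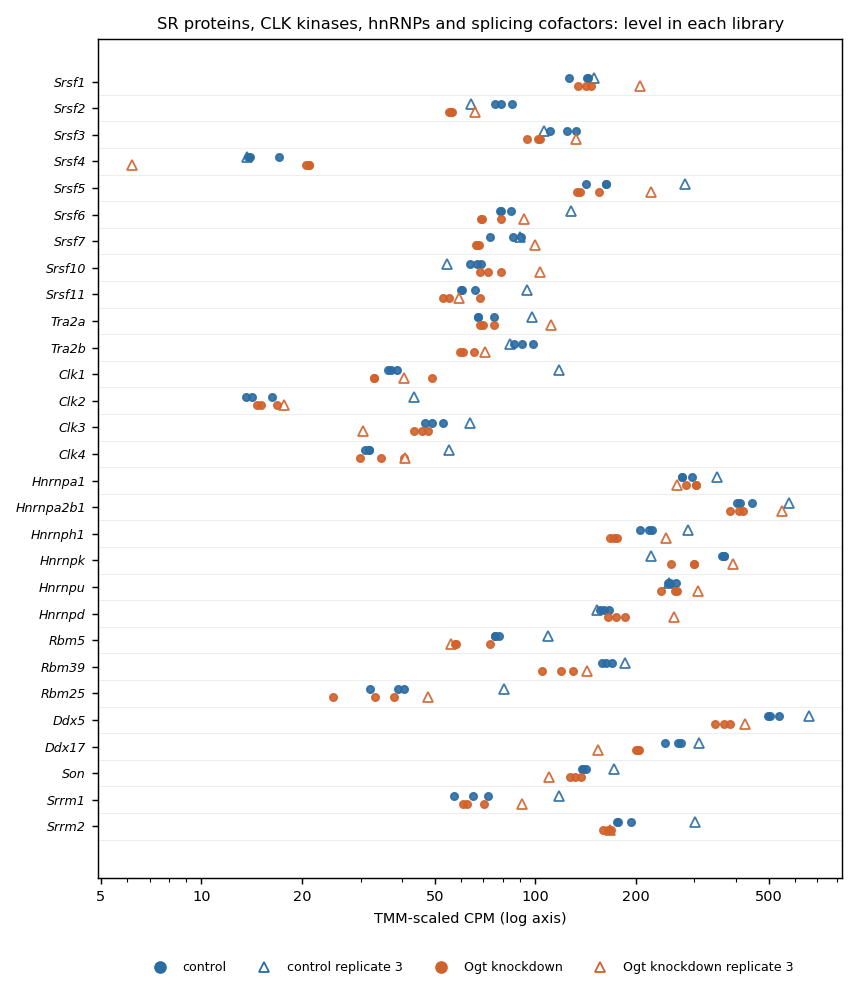
TMM-scaled CPM (log axis) of the SR proteins, CLK kinases, hnRNPs and splicing cofactors in each control (blue) and Ogt knockdown (orange) library; open triangles are the libraries numbered 3. Control replicate 3 is the highest library for Clk1 (118 CPM), Clk2 (43.4 CPM), Clk3 and Clk4 and for all 8 cofactors, while Tra2b, Rbm5, Rbm39, Ddx5 and Ddx17 have all knockdown libraries below all controls.

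Among hnRNPs, 0 of 6 passed (edgeR, also 0 at an unadjusted p under 0.05; DESeq2 called 0 and limma-voom with sample weights called Hnrnph1 and Hnrnpk as lower, as it did 25% of all genes). Their mean levels in controls ran from 21.6 CPM per kilobase of exon (Hnrnpd) to 94.8 ± 11.2 (Hnrnpa1, 91.7 in knockdown libraries). Among the 48, only Ddx5 (95.2 ± 12.99 in controls) was higher than Hnrnpa1 by this measure. Hnrnpu, a nuclear scaffold protein that binds chromatin and RNA, had 255 ± 6.00 CPM in controls and 269 ± 28.5 CPM in knockdown libraries (mean ± SD of 4 libraries; edgeR log2 fold change 0.078, SE 0.12, adjusted p = 0.659). Hnrnpk, a KH-domain protein that binds C-rich RNA, stood at 222, 368, 363 and 367 CPM in controls and at 255, 392, 298 and 299 CPM in knockdown libraries. Its control replicate 3 was the lowest of all 8 libraries, and its knockdown replicate 3 the highest. Without both libraries numbered 3 it passed as lower (log2 fold change -0.37, edgeR adjusted p = 0.00395), as did Hnrnph1 (-0.33, adjusted p = 0.00396). Hnrnph1 also passed without knockdown replicate 3 alone (edgeR adjusted p = 0.0294). Log2 fold changes of the 6 genes ranged from -0.29 (Hnrnph1) to 0.31 (Hnrnpd).

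The 8 splicing cofactors all had negative log2 fold changes, from -0.53 to -0.13, and 4 passed the test (50%, against 15.1% of all genes tested). Ddx5 and Ddx17 encode the RNA helicases p68 and p72, which unwind RNA at splice sites and in miRNA processing. Ddx5 stood at 659, 537, 497 and 506 CPM in controls and at 384, 424, 368 and 345 CPM in knockdown libraries (log2 fold change -0.53, SE 0.14, edgeR adjusted p = 0.0168). Ddx17 stood at 309, 268, 245 and 272 CPM in controls and at 203, 154, 201 and 204 CPM in knockdown libraries (log2 fold change -0.52, SE 0.14, edgeR adjusted p = 0.0181). Neither gene's groups overlapped, and the calls held in all 8 fits with 1 library left out for Ddx5 and in 7 for Ddx17 (edgeR adjusted p = 0.0513 without control replicate 6).

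Rbm39, a U2AF-related cofactor, stood at 185, 169, 159 and 163 CPM in controls and at 129, 143, 105 and 119.6 CPM in knockdown libraries (log2 fold change -0.45, SE 0.13, edgeR adjusted p = 0.0254). Rbm5, which regulates exons of apoptosis genes, stood at 109, 75.6, 75.8 and 77.9 CPM and at 73.5, 55.8, 57.6 and 58.0 CPM (-0.47, SE 0.16, edgeR adjusted p = 0.048). Both showed no overlap between groups, but neither call was stable. Rbm39 did not pass without control replicate 4 (edgeR adjusted p = 0.0524) or 6 (0.0585) or knockdown replicate 4 (0.0615) or 5 (0.0552), and with upper quartile scaling (0.0808). Without any library but knockdown replicate 2 the Rbm5 call was lost (edgeR adjusted p from 0.0544 without control replicate 4 to 0.0949 without knockdown replicate 4), as it was with upper quartile scaling (0.109) or with a stricter filter of 1 CPM in 4 libraries (0.0586).

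Son and Srrm2 encode the large proteins that build nuclear speckles, where splicing factors are stored. Both had all knockdown libraries below all controls without passing the test: Son at 172, 139, 138 and 142 CPM against 137, 109.7, 132 and 127 CPM (edgeR adjusted p = 0.207), and Srrm2 at 302, 176, 177 and 193 CPM against 159.7, 168, 165 and 169 CPM (adjusted p = 0.159). Among all genes tested, groups did not overlap with knockdown lower for 18%. Rbm25 and Srrm1 overlapped between groups, with 80.6 and 118 CPM in control replicate 3 against 32.0 to 40.6 and 57.2 to 72.4 CPM in the other controls. Control replicate 3 was the highest of all 8 libraries for all 8 cofactors. Without it, 3 of the 8 passed as lower, against 16.8% of all genes tested in that fit. The median log2 fold change of the 8 moved from -0.43 to -0.24, and that of Srrm1 turned from -0.13 to 0.13.

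Ratios between related genes within a library do not depend on how libraries are scaled to each other. Tra2a and Tra2b are near relatives that can act on the same exons. The log2 ratio of Tra2a to Tra2b, in reads per kilobase of exon, was 0.64, -0.024, 0.049 and 0.022 in controls and 0.73, 1.07, 0.50 and 0.61 in knockdown libraries. Control replicate 3 lay within the knockdown range and the other controls near 0, so the difference was 0.55 with it and 0.71 without it. The ratio of Rbfox3 to Rbfox1 was 0.45, 0.027, 0.12 and 0.18 in controls and 0.35, 0.65, 0.66 and 0.82 in knockdown libraries, again with only control replicate 3 inside the knockdown range.

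Ptbp2 to Ptbp1 gave 0.52, 1.99, 1.57 and 1.70 in controls and 0.78, 1.57, 0.96 and 0.46 in knockdown libraries on the same log2 scale. Here each library numbered 3 lay with the other group. Nova2 to Nova1 was -0.53 ± 0.12 in controls and -0.68 ± 0.20 in knockdown libraries, and Ddx17 to Ddx5 was -1.41 ± 0.082 and -1.41 ± 0.32 (SD, n = 4 each). Both differences, -0.15 and 0.00066, were smaller in size than the SD of the knockdown libraries, but the first was larger than the SD of the controls. Mbnl2 to Mbnl1 (1.43 ± 0.12 and 1.32 ± 0.28) and Elavl3 to Elavl4 (0.30 ± 0.16 and 0.20 ± 0.42) differed by less than their spread. Clk1 to Clk4 was 0.61 in control replicate 3, -0.27 to -0.20 in the other controls and -0.56 to -0.21 in knockdown libraries. For none of the 8 pairs were the 2 groups fully separate, and no test was made on these ratios.

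**Figure D4:**
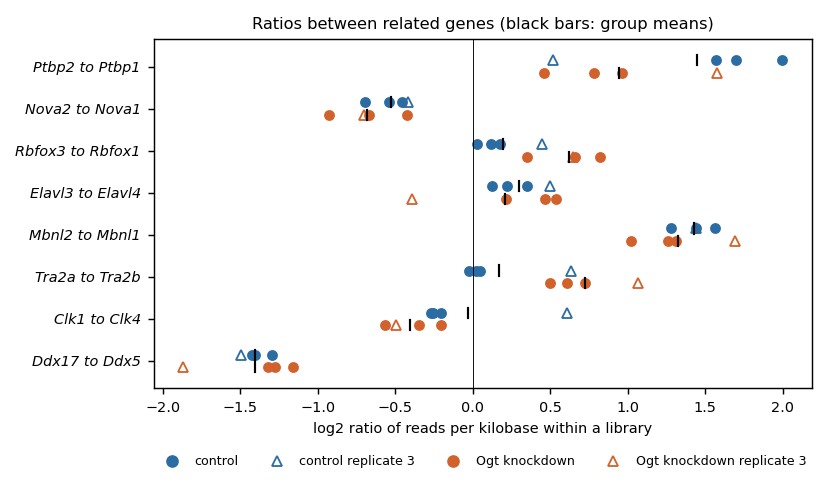
Log2 ratio of reads per kilobase between 8 pairs of related genes in each control (blue) and Ogt knockdown (orange) library, with group means as black bars; open triangles are the libraries numbered 3. Tra2a to Tra2b and Rbfox3 to Rbfox1 are higher in knockdown libraries than in every control but replicate 3.

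Genes of the same processes that were not members gave a mixed picture. Of 77 such genes in 5 lists, 76 were tested; 10 rose (13.2%, against 13.4% of all genes tested) and 8 fell (10.5%, against 15.1%), with a median log2 fold change of 0.035. In the list of other neuronal and glial RNA-binders, 4 of 12 tested genes fell, among them Celf6 (2.20-fold, edgeR adjusted p = 0.00182), Celf3 (1.56-fold, 0.0236) and Srrm3 (1.38-fold, 0.0356). Celf3 did not pass without control replicate 4 (edgeR adjusted p = 0.0561) or knockdown replicate 2 (0.0623), and Srrm3 did not without any of 5 libraries (control replicates 4 and 6, knockdown replicates 2, 3 and 4; 0.0551 to 0.0868) or with upper quartile scaling (0.0714). The 1 gene of that list that rose was Qk, which encodes the RNA-binding protein Quaking, abundant in oligodendrocytes and astrocytes and known for myelin messages. Qk stood at 71.4, 181, 200.1 and 187 CPM in controls and at 456, 428, 417 and 289.8 CPM in knockdown libraries (log2 fold change 1.32, SE 0.29, edgeR adjusted p = 0.00894). Astrocyte and oligodendrocyte markers were higher in the same libraries, and their part in the Qk value was not tested.

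Nonsense-mediated decay removes messages with early stop codons, among them isoforms of many SR genes that carry poison exons. Of 10 genes of that pathway 3 rose (30%, against 13.4% of all genes tested) and 0 fell (against 15.1%) by edgeR. At an unadjusted p under 0.05, 1 was lower by edgeR and 0 by DESeq2. By limma-voom, 5 were called higher and 1 lower at an adjusted p under 0.05, against 26.3% and 25% of all genes by that tool. Smg5 stood at 132, 105, 107 and 114 CPM in controls and at 218, 197, 236 and 262 CPM in knockdown libraries (log2 fold change 1.0, SE 0.13, edgeR adjusted p = 0.000851). Upf2 rose 1.55-fold (edgeR adjusted p = 0.00246) and Smg6 1.52-fold (0.00396). None of these 3 genes' groups overlapped, as for 17.1% of all genes with knockdown higher, and the calls held in all 8 fits that left out 1 library.

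Of the other SR proteins and SR kinases, Srsf9 rose from 35.2 ± 2.00 to 66.3 ± 21.5 CPM (n = 4, SD; edgeR adjusted p = 0.00764). Srpk2, a cytoplasmic kinase of SR proteins, fell from 192 ± 21.4 to 119 ± 11.7 CPM (SD, n = 4; edgeR adjusted p = 0.00419), and the other 5 of that list did not pass. Both calls held in all 8 fits that left out 1 library. Among 17 other hnRNPs, Hnrnph2 fell (1.45-fold, edgeR adjusted p = 0.0139) and Hnrnpll (1.32-fold, 0.0298), Syncrip (1.49-fold, 0.0433) and Hnrnpf (1.39-fold, 0.0465) rose. The 3 rises were lost without 5 to 7 of the 8 libraries in turn (Hnrnpll with edgeR adjusted p = 0.0705 to 0.127, Syncrip with 0.0517 to 0.126, Hnrnpf with 0.0561 to 0.143), and the fall of Hnrnph2 was not. With no filter on low counts these 3 rises did not pass either (edgeR adjusted p = 0.131 for Hnrnpll, 0.0525 for Syncrip and 0.0912 for Hnrnpf). Of 30 core spliceosome genes, 26 did not pass; Sf3a2 (1.92-fold, edgeR adjusted p = 0.00736) and Prpf19 (1.41-fold, 0.0263) fell, and Snrpg (1.66-fold, 0.0227) and Snrpa1 (1.76-fold, 0.0446) rose. Of these 4, only the Sf3a2 call held without each library in turn; Snrpg did not pass without control replicate 4 (edgeR adjusted p = 0.0742), Prpf19 without any of 3 libraries (control replicates 5 and 6, knockdown replicate 2; 0.0569 to 0.0747), and Snrpa1 without any of 5 (control replicates 4, 5 and 6, knockdown replicates 2 and 5; 0.053 to 0.111).

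**Figure D5:**
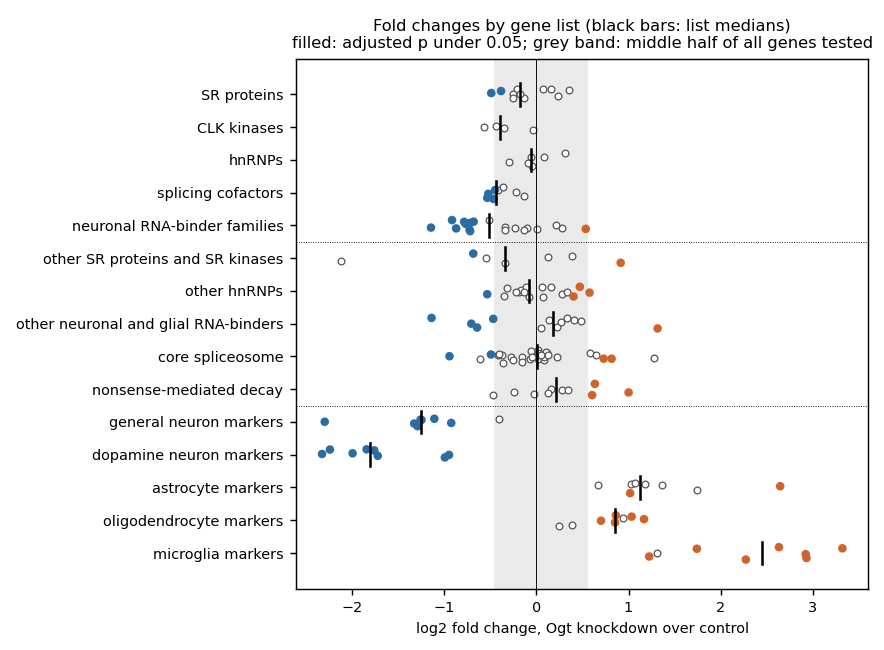
Log2 fold change, Ogt knockdown over control, of each tested gene in the 5 member groups, the 5 lists of related genes and 5 marker lists; filled points passed the edgeR test, black bars are list medians and the grey band runs from the lower to the upper quartile of all genes tested. The median of the neuronal families (-0.51) lies left of 0 but right of the general neuron markers (-1.25), while glial markers lie to the right.

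Leaving out both libraries numbered 3 gave n = 3 in each group and more calls, among members and among all genes alike. Then 23 members were lower and 3 higher, while 23.3% of all genes tested were lower and 23.5% higher (46.8% in all). The 10 members that passed in that fit and not with all 8 libraries were Srsf3, Srsf7, Hnrnph1, Hnrnpk, Celf2, Ptbp2, Khdrbs1 and Mbnl2, as lower, and Srsf4 and Ptbp1, as higher. All 16 members that passed with 8 libraries passed there too. The 4 CLK kinases still gave no call (edgeR adjusted p = 0.258 to 0.847).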

How the data were processed

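Ribosome-associated mRNA of the mouse ventral tegmental area was sequenced in 4 control and 4 Ogt knockdown libraries. The deposited values are raw read counts per gene: featureCounts 2.0.3 counted reads over exons of GENCODE vM30, per the file headers, without strand and without counting pairs, and reads aligned to several places or lying over several genes were not counted. FastQC, Trimmomatic, STAR and mm10 are named in the submitters' processing notes. The mm10 build and the table's GRCm39 coordinates do not match and the difference was not resolved. Gene symbols came from GENCODE M21 by gene ID (52073 of 56691 matched).

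Counts were filtered with edgeR's filterByExpr, scaled by TMM and tested with the edgeR quasi-likelihood test on 6 residual degrees of freedom (edgeR 4.0.16, limma 3.58.1 and DESeq2 1.42.0 under R 4.3.3), with p-values adjusted over all 19912 genes by the Benjamini-Hochberg method and a threshold of 0.05. Single-library levels are TMM-scaled CPM. A count of 3 corresponded to 0.0212 to 0.0626 CPM. In simulated data for this comparison (19427 genes), the test recovered 7.69% of genes changed 1.5-fold, 33.3% of those changed 2-fold and 70.8% of those changed 4-fold. These rates were not worked out for the members, whose median SE was 0.17 against 0.25 for all genes.

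The members and all lists were chosen with earlier results of these data known. The text names all 48 members, Ogt and Oga, up to 4 genes per related list with the smallest p past the threshold, and markers that stand beside a result. One gene of a related list is counted but not reported here by name. Alternatives were other scalings, filters, thresholds and tools, a replicate block, a glial marker score and leaving out libraries. Ratios between related genes were added after seeing the data.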

Additional observations from a re-analysis of the deposited data

Results flagged for a closer look

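In 24 of the 96 groups of 4 libraries examined (48 genes in 2 groups), 1 library lay so far from the other 3 that its gap to the nearest, divided by the group's range, passed Dixon's critical value for 4 values. For independent normal values, chance gives this in about 1 in 20 groups, but the 96 groups come from the same 8 libraries and are not independent. The rate over all genes tested was not worked out, and both libraries numbered 3 stood apart over all genes as well. Control replicate 3 was that library for 13 genes. Its level was above the other controls (their range in parentheses, all in TMM-scaled CPM) for Clk1 at 118 (36.2 to 38.6), Clk2 at 43.4 (13.6 to 16.3), Clk4 at 55.1 (30.9 to 31.8), Srsf5 at 280.1 (142 to 163), Srsf6 at 128 (78.7 to 84.4), Rbm5 at 109 (75.6 to 77.9), Son at 172 (138 to 142), Srrm2 at 302 (176 to 193) and Ptbp1 at 26.1 (15.5 to 17.2). It was below them for Hnrnpk at 222 (363 to 368), Rbfox1 at 58.7 (117 to 125), Rbfox3 at 106 (168 to 176) and Celf4 at 296 (409 to 420.5).

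Ogt knockdown replicate 3 was that library for 9 genes. It was above the other knockdown libraries for Srsf2 at 65.9 (55.3 to 56.5), Srsf7 at 99.99 (66.4 to 67.7), Tra2a at 111 (68.3 to 75.5) and Hnrnph1 at 247 (168 to 176). It was below them for Srsf4 at 6.21 (20.6 to 21.0), Ddx17 at 154 (201 to 204), Srrm4 at 14.8 (25.2 to 25.6), Rbfox1 at 30.4 (51.4 to 54.6) and Rbfox2 at 138 (165 to 167). The other 2 cases were Srsf4 in control replicate 6 at 17.1 (13.7 to 13.97) and Rbm5 in knockdown replicate 2 at 73.5 (55.8 to 58.0).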

How the results depend on the processing

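With all 8 libraries 15 members were lower and 1 higher. Leaving out 1 library at a time gave 8 to 16 lower and 0 to 2 higher members, 1 to 3 lower and 0 to 1 higher SR genes, 0 to 1 lower hnRNPs, 1 to 4 lower cofactors, 6 to 11 lower and 0 to 1 higher genes of neuronal families, and 5 to 12 lower and 6 to 13 higher genes of the related lists. Over all genes, these fits called 10.4% to 16.8% lower and 8.12% to 18.1% higher. RLE scaling left 1 lower SR gene (14.4% of all genes lower), as did no filter on low counts (8.56%). Upper quartile scaling left 1 lower SR gene and 2 lower cofactors (12.2% of all genes lower). A threshold of 0.01 left 7 lower and 0 higher members, against 7.85% of all genes lower and 5.6% higher. It left 1 lower SR gene, 0 lower cofactors, 0 higher genes of neuronal families, and 4 lower and 5 higher genes of the related lists. A threshold of 0.1 gave 14 lower genes of those lists, against 19% of all genes. By limma-voom, 23 members were lower and 2 higher, against 25% of all genes lower and 26.3% higher (51.3% in all). It called 4 lower SR genes, 2 lower hnRNPs, 2 higher genes of neuronal families, and 17 lower and 20 higher genes of the related lists. Without both libraries numbered 3, 23 members were lower and 3 higher, against 23.3% of all genes lower and 23.5% higher. That fit gave 4 lower and 1 higher SR genes, 2 lower hnRNPs, 2 higher neuronal genes, and 19 lower and 23 higher genes of the related lists. With the glial marker score as covariate every one of these counts was 0 (edgeR; 3 members at an unadjusted p under 0.05). DESeq2 called the same 16 members, and 35% of all genes.

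Replicate numbers 3, 4 and 5 occur in both groups. Deviations of same-numbered libraries from their group means correlated at 0.104, 0.0987 and 0.0422. The labels do not say whether such libraries share more than a number. Of the libraries with these numbers, 2 of 3 controls and 3 of 3 knockdown libraries correlated best with their own number. With the replicate block, which leaves 2 residual degrees of freedom, 3 members were lower (Nova1, Rbfox1 and Rbfox2) and 0 higher, with 0 lower SR genes, 0 lower cofactors, 3 lower and 0 higher genes of neuronal families, and 0 lower and 1 higher genes of the related lists (17 members had an unadjusted p under 0.05). Over all genes, that fit called 3.91% lower and 2.41% higher (6.32% in all), and 5843 of 19912 genes had an unadjusted p under 0.05.

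Of the log2 fold changes that changed sign, only those of Syncrip, Celf3, Qk and Srrm3 had passed the test with all libraries. With the glial score as covariate they became 0.20 for Srsf5, 0.035 for Srsf6, 0.047 for Srsf7, 0.80 for Clk2, 0.046 for Clk3, 0.12 for Clk4, 0.13 for Hnrnpa1, 0.37 for Hnrnpa2b1, 0.019 for Hnrnph1, -0.026 for Hnrnpu, 0.089 for Rbm25, 0.35 for Srrm1, 0.22 for Srrm2, 0.086 for Khdrbs1, -0.23 for Syncrip, 0.24 for Celf3, -0.024 for Qk and 0.24 for Srrm3. By limma-voom they became 0.048 for Clk2, 0.12 for Clk4, 0.034 for Hnrnpa1 and 0.0098 for Srrm1. Upper quartile scaling gave 0.049 for Clk4, 0.0398 for Hnrnpa1, 0.032 for Hnrnpa2b1 and 0.013 for Hnrnpk. Without both libraries numbered 3, Clk1 had 0.041, Clk2 0.081, Clk4 0.15, Hnrnpa1 0.074 and Khdrbs2 -0.061. The replicate block gave 0.074 for Hnrnpk and -0.043 for Celf5, and no filter gave -0.029 for Celf5. Leaving out 1 library at a time gave ranges of -0.40 to 0.050 for Srsf5, -0.11 to 0.21 for Tra2a, -0.75 to 0.055 for Clk1, -0.63 to 0.13 for Clk2, -0.13 to 0.21 for Clk4, -0.11 to 0.034 for Hnrnpa1, -0.18 to 0.066 for Hnrnpa2b1, -0.28 to 0.13 for Srrm1, -0.28 to 0.055 for Srrm4 and -0.10 to 0.17 for Celf5. The cause was not tested. The lowest count of a member was 343 reads.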
